A study of Homo sapiens with 16 samples.

Results

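The genes described here encode enzymes that modify and crosslink collagen: the α subunits of collagen prolyl 4-hydroxylase P4HA1 and P4HA2, the lysyl hydroxylases PLOD1 and PLOD2, the lysyl oxidases LOX and LOXL2, and the oxidase ERO1A. They are 7 of the 19813 protein-coding genes examined, and were chosen by function, with earlier results of these data known. A peak was assigned to a gene when its centre lay within 50 kb of a protein-coding start site of that gene (GENCODE release 44 on GRCh37). Of the 23398 peaks in the 16 lists, 93 met this rule, 54 from HIF-1α and 39 from HIF-2α libraries, and they merged into 14 separate sites. P4HA1 and PLOD2 belong to the set of common HIF targets that the study defined partly on these libraries. The study also names P4HA2 and PLOD1 among genes bound by HIF and induced in most, though not all, of its cell lines. The occupancy of these genes is therefore not independent evidence of HIF binding.

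The peaks came from chromatin immunoprecipitation followed by sequencing (ChIP-seq) with antisera against HIF-1α or HIF-2α, the oxygen-regulated subunits of the hypoxia-inducible factors, which are called isoforms here. A549 (lung), HCT116 (colorectal), PC3 (prostate) and T47D (breast) are established human cancer cell lines, and all of them had been held at 0.5% oxygen for 16 h. None of the groups was kept in normal oxygen. There were 8 groups, 1 for every pairing of a cell line with an isoform, and each comprised 2 replicate libraries with 275 to 4505 peaks. Read depth is unknown from the lists, so a missing peak may lie below the threshold of the peak caller.

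Collagen chains are hydroxylated in the endoplasmic reticulum before they fold. Hydroxylation of proline by the P4HA subunits, which pair with the protein disulphide isomerase P4HB, stabilizes the triple helix, and hydroxylation of lysine by the PLOD enzymes prepares the sites of crosslinks and of sugar attachment. Both kinds of enzyme use molecular oxygen and 2-oxoglutarate. Outside the cell LOX and LOXL2 oxidize lysine residues so that collagen fibres become crosslinked, whereas ERO1A restores the oxidized form of protein disulphide isomerase within the endoplasmic reticulum. HIF binds DNA at the core ACGTG or GCGTG.

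The core nearest to the peak centres was located for each gene at the site with its highest mean score. The following stretches of 25 bases are shown because they hold the core closest to the recorded binding. They are from GRCh37, read 5′ to 3′ on the strand that carries the core, with every core on either strand in capitals. Sequence at LOXL2 was not used here.
P4HA1 (chr10:74856696-74856720, plus strand): agccctcgctACGTGagctcgatca
P4HA2 (chr5:131563784-131563808, minus strand): ggcgcggagtACGTGcggtgggctg
PLOD1 (chr1:11990044-11990068, minus strand): tacttctggtACGTGctgCACGTGc
PLOD2 (chr3:145879103-145879127, minus strand): aacagtccagACGTGgggcccagga
LOX (chr5:121413982-121414006, minus strand): aactttgcaaACGTGccagaaagtt
ERO1A (chr14:53162376-53162400, plus strand): cagcctgtggACGTGccgcggcgcc
In these 6 genes the most central core was ACGTG rather than GCGTG, and the share over all merged sites was not computed. In PLOD1 it lies beside a palindromic CACGTG, which holds a core on each strand. Centres are midpoints of the listed peaks and not summits. The nearest GCGTG was a median of 99 bp away in P4HA2, against 91 bp, and 123 bp in ERO1A, against 93 bp. Both gaps were smaller than the SD of the peak centres, 97.9 bp in P4HA2 and 169 bp in ERO1A. They therefore do not rank the cores. In P4HA1 the nearest GCGTG was 288 bp away, against 76 bp, and in PLOD1 387 bp, against 41 bp. PLOD2 had it 78.5 bp away, against 35.5 bp. The LOX site, listed in 1 library, held no GCGTG. The P4HA1 core stood at -84 bp relative to the canonical start, a median of 76 bp from the peak centres, and was covered by the peak in all 16 libraries. The PLOD2 core stood at -144 bp, a median of 35.5 bp from the peak centres, and was covered in the 14 libraries with a peak. The ERO1A core stood at -112 bp and was covered in the 15 libraries with a peak.

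The P4HA2 promoter held several cores close together. A stretch of 200 bases just upstream of its canonical start is shown on the strand of the gene (chr5:131563599-131563798, minus strand), with the 4 cores in capitals. Each of these 4 was covered in the 9 libraries with a peak at this site.
P4HA2 promoter: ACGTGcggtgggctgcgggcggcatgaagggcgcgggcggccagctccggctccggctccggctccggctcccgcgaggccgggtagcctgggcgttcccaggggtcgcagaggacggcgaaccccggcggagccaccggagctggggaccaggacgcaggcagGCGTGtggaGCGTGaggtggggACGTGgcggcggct
From the intergenic site upstream of PLOD1, which held 6 cores in all, the 200 bases with 3 of them are shown (chr1:11990036-11990235, plus strand).
PLOD1 upstream site: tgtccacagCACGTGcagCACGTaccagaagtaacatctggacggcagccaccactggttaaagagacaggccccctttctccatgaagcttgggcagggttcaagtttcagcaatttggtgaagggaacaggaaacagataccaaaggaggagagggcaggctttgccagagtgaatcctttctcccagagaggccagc

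The first question was where these genes carried HIF and in which cells. Peaks within 50 kb were found in both replicates for 22 of the 28 combinations of gene and cell line with HIF-1α, and for 13 of 28 with HIF-2α. With HIF-1α, 5 of the 7 genes had such peaks in A549 cells, 6 in HCT116 cells, 6 in PC3 cells and 5 in T47D cells. The corresponding share of all protein-coding genes was 2.6%, 27.7%, 12.5% and 5.19% in the same order. With HIF-2α, 4 genes had such peaks in A549 cells, 4 in HCT116 cells, 3 in PC3 cells and 2 in T47D cells, and the share of all genes was 4.64%, 3.82%, 1.2% and 1.31%. P4HA1, P4HA2, PLOD1, PLOD2 and ERO1A had a peak in all 8 HIF-1α libraries, a property of 1.52% of protein-coding genes. Only P4HA1 had one in all 8 HIF-2α libraries, a property of 0.288% of genes. All 7 genes had a peak in at least 1 library, as did 59.6% of protein-coding genes, and 6 had one in at least 4 libraries (19.1% of genes). P4HA1, ERO1A and PLOD2 had one in at least 14 libraries, a property of 0.747% of genes, whereas LOX had a peak in 1 library.

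**Figure D1:**
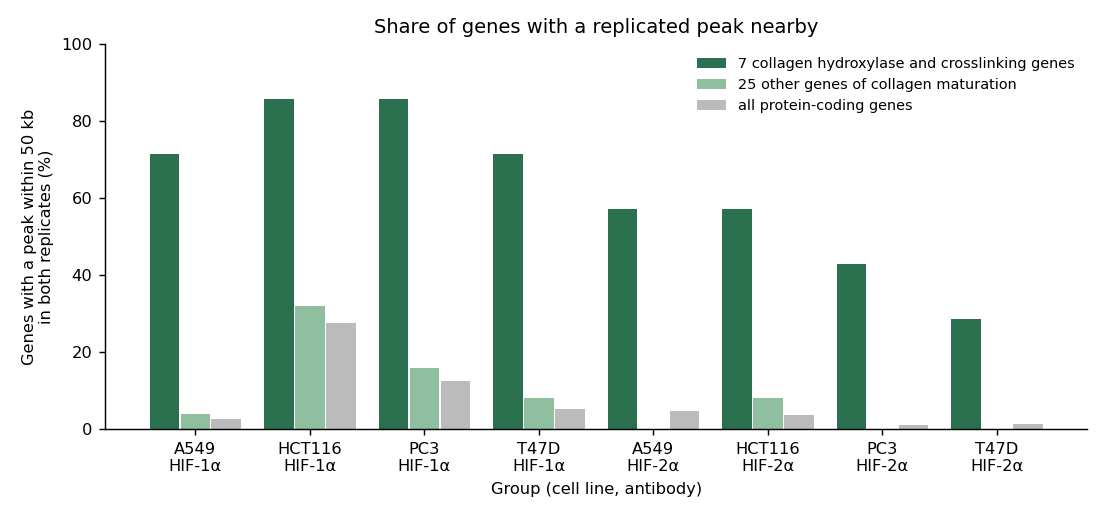
Percentage of genes (vertical axis) with a peak centre within 50 kb of a start site in both replicates, for the 8 groups of cell line and antibody (horizontal axis); bars show the 7 genes described, 25 other genes of collagen maturation and all protein-coding genes. The 7 genes have the tallest bar in each group, and the share of all genes is highest, at 27.7%, in HCT116 HIF-1α, which has the longest lists.

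Counted once per library, most of the peaks lay at the genes' own promoters. Of the 93 peaks, 60 had their centre within 1 kb of a start site of the gene. These were 36 of the 54 HIF-1α peaks and 24 of the 39 HIF-2α peaks. A site listed in many libraries counts many times here, and the share over all peaks was not computed. In 6 genes a site spanned a start site, PLOD1 being the exception. Another gene's start site was nearer for 16 of the 93 peaks, which were closest to KIAA2013 (12 peaks), PDLIM4 (3 peaks) and MFN2 (1 peak). Of the 14 sites, 10 were present in both replicates of at least 1 group and 4 were found in a single library.

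**Figure D2:**
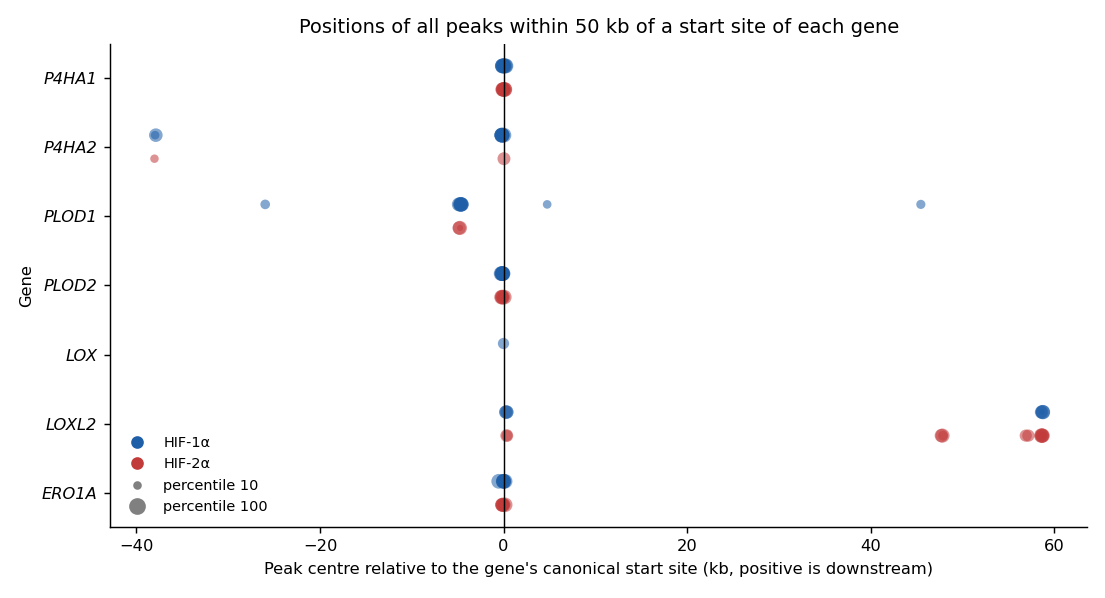
Position of every peak of the 7 genes, as the distance of its centre from the canonical start site in kb (horizontal axis, positive downstream); colour gives the isoform and point size the score percentile. Peaks of P4HA1, PLOD2, LOX and ERO1A sit at the start, those of PLOD1 mainly in a cluster upstream of it, and those of LOXL2 at the start and in the gene body.

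Scores were compared as percentiles within a library, the percentage of that library's peaks scoring at or below the peak in question, and a library without a peak counts as 0. P4HA1, the more broadly expressed of the prolyl hydroxylase α subunits, ranked high everywhere. Its site (chr10:74855334-74857560) spans the start site, and the 16 peak centres fell between -140 and 254 bp relative to the canonical start. With HIF-1α the percentile was 92.4 and 96.7 in A549 cells, 99.6 and 99.5 in HCT116 cells, 99.5 and 99.97 in PC3 cells, and 97.2 and 97.5 in T47D cells. The peak in PC3 HIF-1α replicate 2 was the second of 3413 in that list (rank 2, score 3137). With HIF-2α the percentile was 82.0 and 89.3 in A549 cells, 96.2 and 75.1 in HCT116 cells, 95.6 and 98.9 in PC3 cells, and 85.1 and 88.9 in T47D cells. In each of the 4 cell lines both HIF-1α libraries stood above both HIF-2α libraries. A peak in all 16 libraries was recorded for 0.237% of protein-coding genes.

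P4HA2, the other α subunit described, had HIF-1α at its promoter in every cell line and HIF-2α in 1 library. The site (chr5:131562541-131564598) spans the start, with peak centres from -211 to 45 bp relative to the canonical start. The HIF-1α percentile was 83.2 and 91.4 in A549 cells, 99.2 and 99.5 in HCT116 cells, 96.9 and 98.6 in PC3 cells, and 82.7 and 85.1 in T47D cells. The only HIF-2α peak was that of PC3 replicate 2, at the 72.6th percentile with a score of 96.3. HIF-1α libraries lay above HIF-2α libraries without overlap in 4 of 4 cell lines. A further site within annotated transcripts of both P4HA2 and PDLIM4 (chr5:131600850-131602145) appeared in PC3 alone, in both HIF-1α libraries and HIF-2α replicate 2. Its centre was 4355 bp from the start site of PDLIM4, which encodes a PDZ and LIM domain protein, but 11796 bp from the nearest start site of P4HA2.

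**Figure D3:**
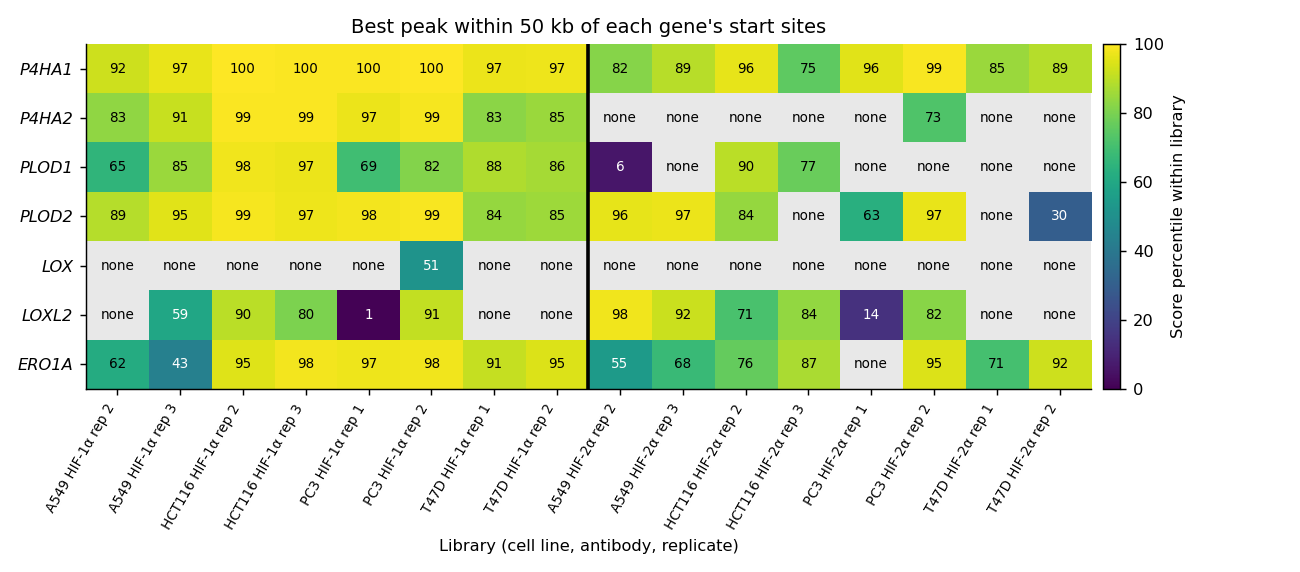
Score percentile of the best peak within 50 kb of each gene (rows) in each of the 16 libraries (columns, HIF-1α left of the black line and HIF-2α right of it); grey cells marked none had no peak. P4HA1 is filled in all 16 libraries, P4HA2 in all 8 HIF-1α and 1 HIF-2α library, and LOX in 1 library.

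PLOD2, which hydroxylates lysine in the telopeptides of collagen, had a promoter site in 14 of the 16 libraries (chr3:145877911-145880014). The HIF-1α percentile was 88.7 and 95.4 in A549 cells, 98.6 and 97.4 in HCT116 cells, 98.3 and 99.1 in PC3 cells, and 84.2 and 85.4 in T47D cells. With HIF-2α it was 96.4 and 97.3 in A549 cells and 63.3 and 96.8 in PC3 cells. HCT116 had a HIF-2α peak in replicate 2, at the 84.3rd percentile, and T47D in replicate 2, at the 29.7th, whereas the other replicate of each had none. By percentile HIF-2α was thus above HIF-1α in both A549 libraries and below it in the libraries of the other 3 cell lines. By rank in the list HIF-2α was not above HIF-1α in A549, at 51 and 30 against 44 and 30. The A549 HIF-2α lists were the longer ones, whereas in HCT116, PC3 and T47D the HIF-1α lists were longer.

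PLOD1, the lysyl hydroxylase of the helical part of the chain, had no peak over its start site in any library. Its leading site (chr1:11989390-11990882) lay between genes, its centre at -4638 bp relative to the canonical start of PLOD1 and 3651 bp from the start site of KIAA2013, which is the nearer gene. This site was found in 8 HIF-1α and 3 HIF-2α libraries. The HIF-1α percentile was 65.4 and 85.1 in A549 cells, 97.8 and 97.0 in HCT116 cells, 69.5 and 81.5 in PC3 cells, and 88.2 and 86.5 in T47D cells. HCT116 was the only cell line with HIF-2α peaks in both replicates, at the 89.7th and 77.1st percentile, and the A549 HIF-2α peak stood at the 6.01st percentile. By percentile the isoforms did not overlap in any cell line. By rank in the list they overlapped in HCT116, at 99 and 134 with HIF-1α against 131 and 207 with HIF-2α. The HIF-1α lists of HCT116 were the longer ones. The other 3 sites within 50 kb of PLOD1, 1 of them over the start site of MFN2, occurred only in HCT116 HIF-1α replicate 2, none above the 34.3rd percentile.

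ERO1A, the oxidase that serves protein disulphide isomerase, had a promoter site in 15 of the 16 libraries (chr14:53160978-53164292). The HIF-1α percentile was 61.5 and 43.4 in A549 cells, 95.0 and 98.1 in HCT116 cells, 97.4 and 97.9 in PC3 cells, and 91.1 and 94.7 in T47D cells. The HIF-2α percentile was 54.6 and 67.9 in A549 cells, 76.3 and 87.2 in HCT116 cells, and 70.7 and 92.5 in T47D cells. In PC3 a HIF-2α peak was present in replicate 2, at the 94.8th percentile, and none in replicate 1, the shortest list with 275 peaks. By percentile the isoforms overlapped in A549 and T47D and did not in HCT116 and PC3, where HIF-1α was higher. By rank in the list they overlapped in HCT116 too, at 224 and 88 with HIF-1α against 301 and 116 with HIF-2α. In PC3 the ranks were 40 and 73 with HIF-1α and 68 in the HIF-2α library with a peak. The HIF-1α lists of both these cell lines were the longer ones.

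LOX, which initiates the crosslinking of collagen and elastin, had a single peak, in PC3 HIF-1α replicate 2 (chr5:121413534-121414492). It spans the start site and stood at the 51.5th percentile with a score of 81.7. The other 15 libraries listed no peak within 50 kb of LOX, including the second HIF-1α library of PC3.

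LOXL2, a lysyl oxidase related to LOX, had its leading site far from the canonical start. That site (chr8:23202299-23203543) lay in the gene body, 58712 bp downstream of the canonical start and 11913 bp upstream of an internal start site, and it also lay within the antisense transcript LOXL2-AS1. It was present in 5 HIF-1α and 6 HIF-2α libraries and in none of T47D. In A549 the percentile was 98.0 and 92.0 with HIF-2α, against 59.3 and no peak with HIF-1α. In HCT116 it was 89.7 and 80.2 with HIF-1α and 45.6 and 83.7 with HIF-2α. In PC3 it was 0.593 and 90.7 with HIF-1α and 14.2 and 82.2 with HIF-2α, so that the replicates differed more than the isoforms.

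A pair of further LOXL2 sites was found with HIF-2α only. The site at chr8:23213263-23214515 had percentiles of 88.2 and 79.7 in A549 cells and 33.7 in PC3 replicate 2. The site at chr8:23203737-23205360 had percentiles of 63.5 and 62.6, both in A549. Its peaks ranked 505 and 396 there, and the A549 HIF-1α lists held 382 and 629 peaks in all. A peak of such rank could thus be missing from the shorter lists. At the promoter (chr8:23260642-23262019), which lies inside an annotated transcript of ENTPD4 as well, HCT116 had peaks in all 4 libraries, at 81.5 and 74.9 with HIF-1α and 71.3 and 50.3 with HIF-2α. PC3 HIF-1α replicate 2 had a promoter peak at the 76.6th percentile. A549 and T47D had none there.

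**Figure D4:**
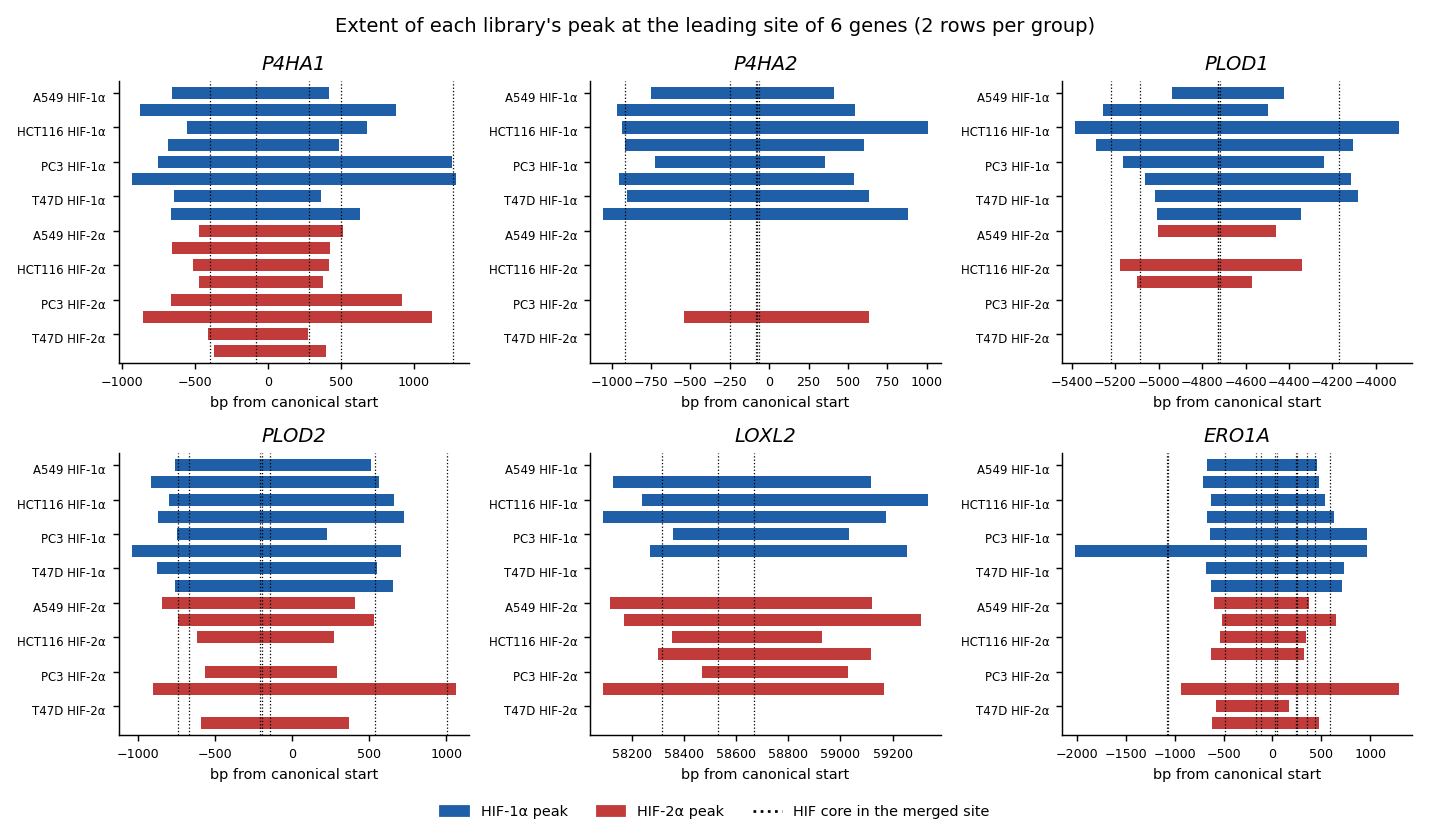
Extent of the peak in each library at the leading site of 6 genes, in bp from the canonical start (horizontal axis, positive downstream), with 2 rows per group, blue for HIF-1α and red for HIF-2α; dotted lines mark HIF cores in the merged site. The P4HA1 panel has 16 peaks and the P4HA2 panel 9, of which 1 is HIF-2α.

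To compare the isoforms, the difference in mean percentile was averaged over the 4 cell lines and set against all exchanges of the isoform labels among the libraries of each cell line (exact permutation test, two-sided, smallest possible p = 0.00154). P-values were adjusted by the Benjamini-Hochberg method over the 3787 protein-coding genes with a peak in at least 4 libraries. HIF-1α was higher for 3 of the 6 collagen genes tested, P4HA1, P4HA2 and PLOD1. For these 3 the percentiles of the isoforms did not overlap in any of the 4 cell lines (5.31% of all genes tested). For comparison, HIF-1α was higher for 10.9% of all genes tested and HIF-2α for 0.0264%. P4HA2 and PLOD1 reached the 4 libraries needed for testing only through HIF-1α, with 1 and 3 HIF-2α libraries, so these counts cover genes selected partly by the isoform called higher. When all genes with any peak were tested, none of the 6 passed (exact permutation, adjusted p = 0.0903 for each of the 3). LOX, with a peak in 1 library, was not tested. The labels do not say whether replicates were separate cultures, so p-values measure the spread between these libraries. Each isoform had its own antiserum, so differences between isoforms cannot be told apart from differences between antisera. HIF-1α lists were the longer ones in HCT116, PC3 and T47D, and HIF-2α lists in A549. A peak of a given rank has a higher percentile in a longer list.

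P4HA2 had the widest difference of the 6 genes. Its mean percentile was 92.1 with HIF-1α and 9.07 with HIF-2α, a difference of 83.0 points (exact permutation p = 0.00154, adjusted p = 0.0289, or 0.0903 with all genes tested), positive in 4 of 4 cell lines. PLOD1 had means of 83.9 and 21.6, a difference of 62.3 points (exact permutation p = 0.00154, adjusted p = 0.0289, or 0.0903 with all genes tested), also positive in 4 of 4. The difference for PLOD1 was smallest in HCT116 cells and reached 87.3 points in T47D cells. When each list was reduced to its 275 best peaks, the PLOD1 difference was 36.0 points (exact permutation, adjusted p = 0.0453).

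P4HA1 had means of 97.8 and 88.9, a difference of 8.91 points (exact permutation p = 0.00154, adjusted p = 0.0289, or 0.0903 with all genes tested), positive in 4 of 4 cell lines. The difference is one of rank, as every library held a peak. It did not pass the threshold without any single one of 4 libraries, A549 HIF-1α replicate 3, A549 HIF-2α replicate 2 or either HIF-1α library of HCT116 (exact permutation, adjusted p from 0.0519 to 0.0739). Among the 275 best peaks of each list it was 28.9 points (exact permutation, adjusted p = 0.0116), and under a stricter score threshold 24.0 points (exact permutation, adjusted p = 0.0263).

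PLOD2, LOXL2 and ERO1A did not pass the threshold. The PLOD2 means were 93.4 and 58.5, a difference of 34.9 points that was positive in 3 of 4 cell lines (exact permutation p = 0.0201, adjusted p = 0.0938). Among the 275 best peaks of each list it was 32.5 points and passed (exact permutation, adjusted p = 0.0234). The ERO1A means were 84.9 and 68.0, a difference of 16.9 points, positive in 3 of 4 cell lines (exact permutation p = 0.16, adjusted p = 0.231). It was 5.04 points without PC3 HIF-2α replicate 1, which had no peak, and 28.7 points without PC3 HIF-2α replicate 2. LOXL2 had means of 40.1 and 55.2, a difference of -15.1 points, with -65.3 points in A549 cells and -2.58 to 7.46 in the others (exact permutation p = 0.333, adjusted p = 0.406). Among the 275 best peaks of each list it was -28.7 points (exact permutation, adjusted p = 0.0541). It was -7.70 without A549 HIF-1α replicate 2, -3.86 without PC3 HIF-1α replicate 1, -26.4 without PC3 HIF-1α replicate 2, -23.6 without PC3 HIF-2α replicate 1 and -6.61 without PC3 HIF-2α replicate 2.

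**Figure D5:**
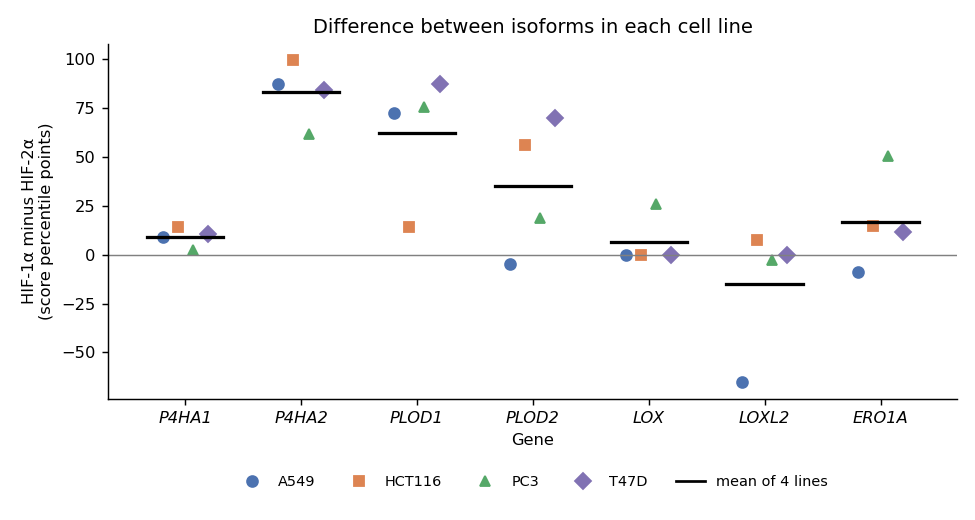
Difference between HIF-1α and HIF-2α in mean score percentile (vertical axis, points) for each gene; symbols are the 4 cell lines and the black bar is their mean. All 4 cell lines lie above 0 for P4HA1, P4HA2 and PLOD1, while A549 lies below 0 for PLOD2, LOXL2 and ERO1A. In A549 the HIF-2α lists were longer than the HIF-1α lists, and in HCT116, PC3 and T47D the HIF-1α lists were longer.

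The same test on merged sites rather than genes covered 1421 sites with a peak in at least 4 libraries, 7 of them near the collagen genes. HIF-1α was higher at the promoter sites of P4HA1 and P4HA2 and at the upstream site of PLOD1, thus at 3 of 7, against 10.8% of all sites tested. The P4HA2 and PLOD1 sites, with 1 and 3 HIF-2α libraries, had entered this test only through HIF-1α. The site test was not run without that filter. At these 3 sites the differences were those of the gene test, so the calls repeat it. HIF-2α was higher at none of the 7 and at 0.0704% of all sites. At the LOXL2 promoter the mean percentile was 29.1 with HIF-1α and 15.2 with HIF-2α, a difference of 13.9 points, and at its leading site in the gene body the difference was -11.9 points. Neither passed the threshold (exact permutation p = 0.167 and 0.519 before adjustment).

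Whether occupancy differed between cell lines was asked separately for each isoform, with a one-sided exact permutation test of the variance of the cell line means over all ways of sorting the 8 libraries into pairs (smallest possible p = 0.00952). None of the 6 genes passed after adjustment, nor did any of the 3787 genes tested. Before adjustment the HIF-1α values of 4 genes had p below 0.05: P4HA1 (exact permutation p = 0.019), PLOD2 (p = 0.019), ERO1A (p = 0.0286) and P4HA2 (p = 0.0381). The share of all genes below 0.05 was 30.9%. With HIF-2α, LOXL2 alone was below 0.05 (exact permutation p = 0.0381), against 3.38% of all genes. The SD of the cell line means of ERO1A with HIF-1α was 21.7 points, the A549 libraries being lowest, and that of LOXL2 with HIF-2α was 41.5 points, with A549 highest and T47D without a peak.

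The HIF core, searched as ACGTG and GCGTG on both strands, was present in the central 200 bp of 10 of the 14 merged sites, compared with 50.5% of all 11664 merged sites. Among sites found in at least 4 libraries the counts were 4 of the 7 near these genes and 64.7% of all 1421. The 4 of 14 without one were the promoter sites of P4HA1, PLOD2 and ERO1A and the site at MFN2, and with the centre of the best peak in place of that of the merged site the count was 11 of 14. Over their whole length, all 14 sites held a core, as did 88.8% of all sites, which differ in length. Sites differed in the number of cores. The LOX site, listed in 1 library, held 8 copies of ACGTG in 959 bp, whereas the P4HA1 site, listed in 16, held 3 copies of ACGTG and 2 of GCGTG in 2227 bp. The ERO1A site, listed in 15 libraries, held 2 of ACGTG and 10 of GCGTG in 3315 bp. A copy of these letters is a description of the sequence and not a mapped binding site.

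The other genes of collagen modification, folding and maturation had fewer peaks. Of 25 such genes, 20 had a peak within 50 kb in at least 1 library, and the median number of libraries with a peak was 2, compared with 11 for the 7 enzymes and 1 for all protein-coding genes. Peaks in both replicates were found for 8 of the 25 in HCT116 HIF-1α, 4 in PC3 HIF-1α, 2 in T47D HIF-1α, 1 in A549 HIF-1α and 2 in HCT116 HIF-2α, and for 0 in the other 3 HIF-2α groups. Only 3 genes, P4HB, P3H3 and COLGALT1, had them in at least 2 groups. P4HB, the disulphide isomerase that pairs with the P4HA subunits, had peaks in 9 libraries, and in all 9 a peak had the P4HB start site as its nearest. Its mean percentile was 77.2 with HIF-1α and 19.9 with HIF-2α, a difference of 57.3 points (exact permutation p = 0.00463, adjusted p = 0.0422), positive in 4 of 4 cell lines. HCT116 was the only cell line with HIF-2α at P4HB.

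P3H3, a member of the prolyl 3-hydroxylase family, had peaks in 11 libraries and a difference of 52.0 points between isoforms (exact permutation p = 0.00154, adjusted p = 0.0289). In each of the 11 libraries a peak lay at the start site of TPI1, a glycolytic enzyme gene within the same 50 kb, and P3H3 itself was the nearest gene of only 3 of its 21 peaks, in 3 libraries. COLGALT1, a collagen galactosyltransferase, had peaks in 4 HIF-1α libraries, none of which had COLGALT1 as the nearest gene (exact permutation p = 0.0556 for the difference between isoforms, adjusted p = 0.112). Thus HIF-1α was higher for 2 of the 6 genes of this list that were tested, P4HB and P3H3, and HIF-2α for 0. P4HB, with 2 HIF-2α libraries, and P3H3, with 3, had also entered the test only through HIF-1α, and with all genes tested no gene was called. P3H1, COLGALT2, ADAMTS2, ADAMTS3 and ADAMTS14 had no peak.

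The genes with the most similar profile over the 16 libraries were identified by Pearson correlation of the percentiles, among tested genes on another chromosome or more than 1 Mb away. The points share libraries, and a profile of many zeros gives high values. P4HA2 was most similar to MYD88 and OXSR1, neighbours with the same values (r = 0.997), and to ZC3HAV1L (r = 0.996). PLOD1 was most similar to DENND1A (r = 0.975), SLC8A3 (r = 0.972) and VGLL4 (r = 0.967). LOXL2 was most similar to GSE1 (r = 0.952) and to the neighbours RNPEP and ELF3 (r = 0.929 each). Among those of PLOD2 were KMT2E and an unnamed gene that overlaps it (r = 0.842 each). Those of ERO1A were DOC2A, C16orf92 and TLCD3B, which are neighbours (r = 0.835), and those of P4HA1 were NREP (r = 0.821), CTDP1 (r = 0.813) and ACAA1 (r = 0.801).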

How the data were processed

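Adapters were trimmed by the authors with Trim Galore (0.3.3), reads were aligned to GRCh37 with BWA (0.7.5a-r405), and low-quality, blacklisted and duplicate reads were removed (SAMtools 0.1.19, bedtools 2.17.0, Picard 2.0.1). The processing notes name MACS as the peak caller of the lists, which are 1 per library; its version is not given in the sources used here. Each deposited list holds a score per peak, of unstated scale, which was used only to rank peaks within a library. The methods also describe a second caller, a background filter and a requirement for replicate overlap; the lists still held peaks found in 1 replicate. Lists hold 275 to 4505 peaks, and their depth is unknown. No merged site ended beyond a GRCh37 chromosome.

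Peaks sharing at least 1 bp were merged into sites. Python 3.11.15, numpy 2.4.6, scipy 1.17.1 and matplotlib 3.10.9 were used, and the tests were tried on simulated data. Groups came from the sample labels. The genes and lists were chosen with earlier results of these data known. Named were the 7 genes, genes nearer to their sites, genes of the 25-gene list with replicated peaks in at least 2 groups, and the 3 most similar genes, of which 1 is not reported here. Sequence was to be the stretch with most cores outside untranslated exons; for P4HA1, PLOD2 and ERO1A this missed the central core, so 25 bases around that core were printed for 6 genes, a choice made after positions were seen. Alternatives varied the window, start sites, gene assignment, score threshold, list length, scale, filter, overlap, replicate pairing and libraries.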

Additional observations from a re-analysis of the deposited data

Results flagged for a closer look

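PLOD2 was singled out by score percentile. Both HIF-2α libraries exceeded both HIF-1α libraries in A549, while both HIF-1α libraries exceeded both HIF-2α libraries in HCT116, PC3 and T47D. The difference between HIF-1α and HIF-2α in mean score percentile was -4.75 points in A549 cells, compared with 55.9 points in HCT116, 18.7 points in PC3 and 69.9 points in T47D cells. The contrast between cell lines was not tested. In A549 the HIF-2α lists were also the longer ones, with 1382 and 1056 peaks against 382 and 629 for HIF-1α. In HCT116, PC3 and T47D the HIF-1α lists were the longer ones. Counted from the top of its list, the A549 PLOD2 peak ranked 44 and 30 with HIF-1α and 51 and 30 with HIF-2α. By rank HIF-2α was thus not above HIF-1α there, and the part of list length was not tested. HIF-2α was higher without overlap in A549 for 15.1% of all genes tested.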

How the results depend on the processing

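The number of combinations of gene and cell line with a replicated peak, 22 for HIF-1α and 13 for HIF-2α, stayed within 16 to 24 and 9 to 18 under all alternatives run, and within 22 to 23 and 13 to 15 when 1 library was left out. The number of genes called between isoforms, 3, was 2 to 3 without 1 library, as was the number of sites. It was 0 in settings with fewer relabellings or more genes tested. By exact permutation, these were exchange of labels only within replicate pairs (replicate block, where 256 relabellings allow no p below 0.00781 and the adjusted p was 0.137), testing all genes with any peak (adjusted p = 0.0903), and leaving out A549, HCT116, PC3 or T47D in turn. With presence in place of percentile it was also 0 for genes and 0 for sites; P4HA1, present in all libraries, then has no difference, and for the others the cause was not tested. For sites it was 0 with the replicate block and without HCT116, PC3 or T47D, 4 without A549, and 1 with a reciprocal overlap of 50%, which drops peaks shorter than that share of the merged site. The labels do not say whether HIF-1α and HIF-2α libraries with the same replicate number were paired. The differences between replicates correlated between isoforms at r = 0.0226 to 0.0796. This low correlation cannot decide the question, as peaks missing from 1 replicate enter it. The LOXL2 difference reversed to 13.9 points with a window of 10 kb, which leaves the promoter site, and to 1.63 points without A549. Over all genes, HIF-1α was higher for 414 genes, and for 194 with 10 kb, 675 with 100 kb, 136 by nearest gene, 267 with equal lists, 0 in the settings named above and 161 to 714 without 1 library; HIF-2α was higher for 1 gene, and for 27 with equal lists. PLOD1 gave no value by nearest gene. The test between cell lines called 0 of the genes in all alternatives run; leaving out a cell line was not run, as its 15 pairings allow no p below 0.0667. The core was in the central 200 bp of 10 sites, and of 11 when the best peak was used.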
